A study of Homo sapiens with 4 samples.

Results

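RKO and HCT116 are human colorectal cancer cell lines, and the comparison described here set the identity of RKO against that of HCT116, whatever the knockdown. Messenger RNA was sequenced from 4 libraries: RKO carrying a control short hairpin RNA (shRNA), RKO carrying an shRNA against EZH2, and HCT116 with the same pair of treatments, each shRNA delivered by lentivirus. EZH2 is the histone methyltransferase of Polycomb repressive complex 2, with 33.6 (control shRNA) and 6.61 (EZH2 shRNA) FPKM in RKO, against 31.5 and 12.6 FPKM in HCT116. FPKM (fragments scaled to transcript length and to the depth of the library) allows levels of genes of different length to be compared. All 4 libraries were taken for the comparison, 2 per line, so that a control pair and an EZH2 shRNA pair each gave 1 difference, RKO minus HCT116, of log2(FPKM + 1). Of the 7640 genes listed in the deposited table, 6139 had a mean of at least 1 FPKM and were measured. The line difference of a gene was tested with limma, with the shRNA as pairing factor, and a gene was called at an adjusted p of at most 0.05. The labels do not say that the cultures were separate. The p-values thus rest only on how unlike the control pair and the EZH2 shRNA pair were, in the gene itself and in other genes of similar level. The line cannot be told apart from anything else in which these RKO and HCT116 libraries differed.

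By way of background, most colorectal cancer lines keep the traits of the epithelium they arose from: keratins, desmosomes, tight junctions and the adhesion molecules E-cadherin and EpCAM. RKO is known as a poorly differentiated line with mutated BRAF and no mutation of APC or beta-catenin, HCT116 as a line with mutated beta-catenin, and both are microsatellite unstable. CpG-rich promoters are the usual promoters of genes that many cells use, and methylation of their CpGs goes along with stable silencing.

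For some of the genes with the sharpest contrast between the lines, the 250 bases before the transcription start are shown from RefSeq (GRCh38.p14), with each CpG in capitals, since the number of CpGs varied widely among them. The first 3 belong to genes seen in HCT116 and not in RKO: JUP (plakoglobin) at chr17:41786712-41786961 (minus strand), ELF3 (an epithelial ETS factor) at chr1:202010337-202010586 (plus strand), and DKK1 (a secreted Wnt antagonist) at chr10:52314031-52314280 (plus strand).
JUP: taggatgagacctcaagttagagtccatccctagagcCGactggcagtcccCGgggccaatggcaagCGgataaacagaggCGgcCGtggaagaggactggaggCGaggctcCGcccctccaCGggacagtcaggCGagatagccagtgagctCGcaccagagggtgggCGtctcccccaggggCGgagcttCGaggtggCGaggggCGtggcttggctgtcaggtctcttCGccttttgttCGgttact
ELF3: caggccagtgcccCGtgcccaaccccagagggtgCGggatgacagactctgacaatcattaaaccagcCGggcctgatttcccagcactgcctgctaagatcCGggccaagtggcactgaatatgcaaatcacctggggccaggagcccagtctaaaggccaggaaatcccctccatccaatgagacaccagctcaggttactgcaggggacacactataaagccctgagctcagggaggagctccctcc
DKK1: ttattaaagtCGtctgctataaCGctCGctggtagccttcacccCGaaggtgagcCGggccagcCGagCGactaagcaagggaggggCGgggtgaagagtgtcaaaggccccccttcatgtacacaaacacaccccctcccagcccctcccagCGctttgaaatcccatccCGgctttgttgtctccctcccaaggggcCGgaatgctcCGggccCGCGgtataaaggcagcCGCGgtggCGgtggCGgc

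The next 4 belong to genes seen in RKO and not in HCT116: TXNIP (an inhibitor of thioredoxin and glucose uptake) at chr1:145996580-145996829 (minus strand), CBR1 (carbonyl reductase) at chr21:36069774-36070023 (plus strand), G0S2 (an inhibitor of the lipase ATGL) at chr1:209675162-209675411 (plus strand), and LEF1 (a partner of beta-catenin on DNA) at chr4:108166302-108166551 (minus strand).
TXNIP: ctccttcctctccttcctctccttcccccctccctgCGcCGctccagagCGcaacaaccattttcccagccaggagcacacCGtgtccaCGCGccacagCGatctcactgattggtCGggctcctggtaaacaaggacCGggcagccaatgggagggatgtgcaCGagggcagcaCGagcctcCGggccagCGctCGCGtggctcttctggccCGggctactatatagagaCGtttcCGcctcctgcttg
CBR1: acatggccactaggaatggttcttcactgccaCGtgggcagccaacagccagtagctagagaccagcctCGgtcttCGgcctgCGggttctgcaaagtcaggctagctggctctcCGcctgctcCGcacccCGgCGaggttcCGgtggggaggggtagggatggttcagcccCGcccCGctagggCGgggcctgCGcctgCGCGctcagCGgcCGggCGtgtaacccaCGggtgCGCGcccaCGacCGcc
G0S2: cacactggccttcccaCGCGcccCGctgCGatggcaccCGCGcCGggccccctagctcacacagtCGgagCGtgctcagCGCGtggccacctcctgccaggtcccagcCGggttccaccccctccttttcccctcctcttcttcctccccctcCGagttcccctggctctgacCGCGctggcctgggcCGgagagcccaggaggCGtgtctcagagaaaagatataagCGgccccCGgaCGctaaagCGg
LEF1: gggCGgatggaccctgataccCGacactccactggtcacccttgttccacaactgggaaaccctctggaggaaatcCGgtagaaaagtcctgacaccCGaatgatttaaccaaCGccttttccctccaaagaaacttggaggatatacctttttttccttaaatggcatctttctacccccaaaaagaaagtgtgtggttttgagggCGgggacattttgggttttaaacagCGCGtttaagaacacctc

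These windows held 17 CpGs in JUP, 4 in ELF3 and 18 in DKK1, and 18 in TXNIP, 23 in CBR1, 21 in G0S2 and 8 in LEF1. The groups they stand for are counted further on, where the same letters, CG, are searched in every promoter of the table. The DNA itself was not assayed, and no methylation was measured.

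In the fit of all 4 libraries, most of the genes measured were called different between the lines. Of 6139 genes, 1499 were higher in RKO (24.4%) and 2440 were lower (39.7%), and 2200 were not called. All 3939 called genes had the same sign in the control pair and in the EZH2 shRNA pair. The test could not call a gene whose pairs had opposite signs, so this shared sign follows from the test. The median size of the line difference, without its sign, was 0.87 on the log2 scale, while that of the change with EZH2 shRNA was 0.17 in RKO and 0.13 in HCT116, and in 4094 genes both line differences were larger than both knockdown changes. Among the called genes, 33 were at least 16-fold higher in RKO and 171 at least 16-fold lower on the log2(FPKM + 1) scale. Fits without 1 library also left out the shRNA factor, so the EZH2 shRNA change in the line with 2 libraries counted as spread. A call lost in them can reflect that change and not an unstable line difference. Fewer genes were called without either HCT116 library, and most of the measured genes were then not called. The median difference was -0.258 without the HCT116 control library and -0.256 without the HCT116 EZH2 shRNA library. Each of these fits rested on 1 HCT116 library assumed to vary like the RKO pair.

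**Figure D1:**
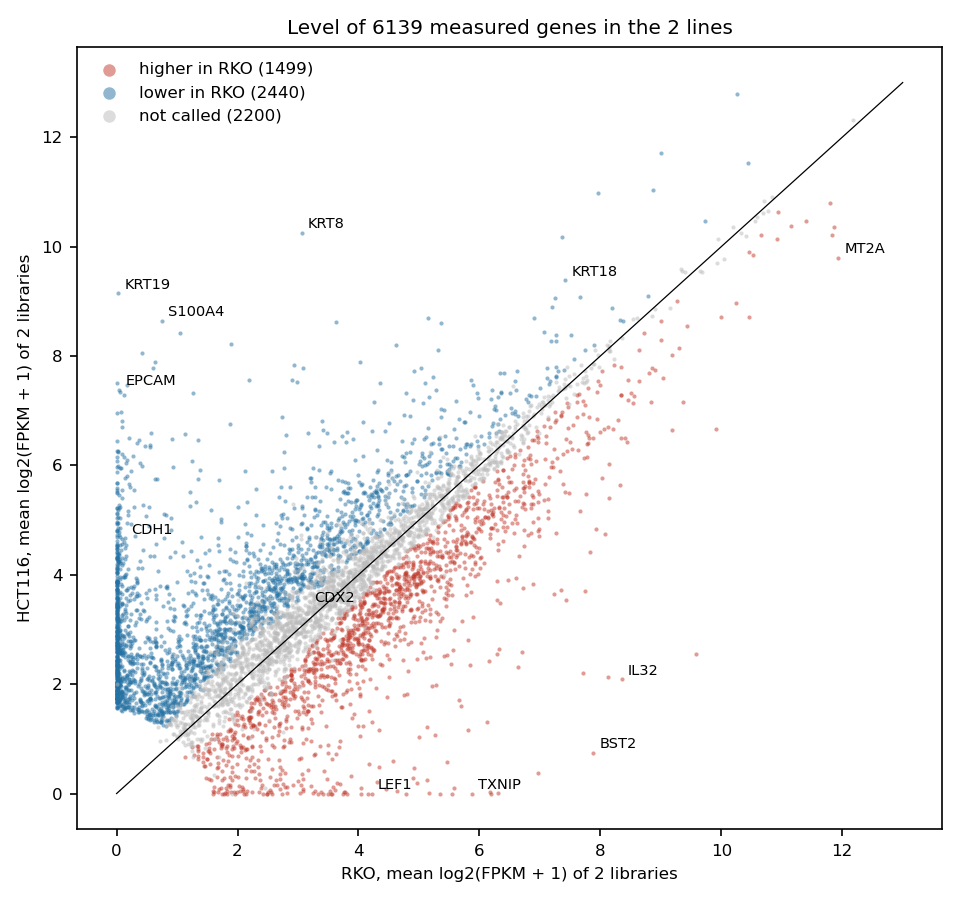
Mean log2(FPKM + 1) of each of the 6139 measured genes in RKO (x axis) and in HCT116 (y axis), 2 libraries per line, with a line of equal level. Red points are the 1499 genes called higher in RKO, blue points the 2440 called lower and grey points the 2200 not called. The blue column at the left edge holds genes such as KRT19, EPCAM and CDH1 that were close to 0 in RKO.

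The excess of lower genes cannot be told apart from the choice of genes the table lists. Both RKO libraries were at 0 FPKM in 602 of the listed genes and both HCT116 libraries in 63. Of the 4666 genes with at least 1 FPKM in every library, 1256 were higher in RKO (26.9%) and 1315 lower (28.2%). The split also depended on the scaling. The median difference of all measured genes was -0.25 with the deposited FPKM and 0.02 under median-of-ratios scaling, which called 1903 genes higher and 2112 lower. The directions given below for single genes are on the deposited scale and are larger than this shift unless stated.

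The comparison turned first to the traits of epithelial cells. Nearly the whole set of epithelial junction and keratin genes was lower in RKO, many of them to levels near 0. Of 44 such genes listed, 42 were measured. Of these, 37 were lower in RKO, 1 was higher and 4 were not called, with a median difference of -3.07 beside -0.25 for all genes. Leaving out any 1 library gave 33 to 38 lower and 0 to 2 higher genes. KRT19, a keratin of simple epithelia, had 0.04 and 0.00 FPKM in RKO (control and EZH2 shRNA, the order kept from here on), against 567 and 562 FPKM in HCT116. EPCAM, the epithelial cell adhesion molecule, had 0.00 and 0.06 FPKM in RKO, against 177 and 156 FPKM in HCT116. CDH1, which encodes E-cadherin, the adhesion molecule of adherens junctions, had 0.10 and 0.10 FPKM in RKO, against 25.3 and 23.7 FPKM in HCT116. For these 3 genes the lines did not come near each other, and the adjusted p was 0.000695, the smallest in the table, shared within rounding by 277 genes. The size of a fitted difference for a gene near 0 depends on the pseudocount and is not given as a fold.

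The keratin pair KRT8 and KRT18, which form the filaments of simple epithelia, did not behave alike. KRT8 had 7.05 and 7.63 FPKM in RKO, against 1262 and 1183 FPKM in HCT116, a difference of -7.20 ± 0.09 (log2, SE). KRT18 had 154 and 188 FPKM in RKO, against 667 and 675 FPKM in HCT116, a difference of -1.97 ± 0.10. RKO therefore retained a substantial level of KRT18 with very little KRT8. The desmosomal linker JUP, whose promoter is printed above, had 0.09 and 0.03 FPKM in RKO, against 148 and 71.6 FPKM in HCT116. The vesicle protein MAL2 was listed at 0 in both RKO libraries, against 97.1 and 76.7 FPKM in HCT116, at least 1205-fold lower in RKO against a floor of 3 counts per library. Low in RKO as well were the tight junction gene CLDN4 (0.09 and 0.00 FPKM, against 67.1 and 55.7 in HCT116), the membrane protease ST14 (0.02 and 0.00 FPKM, against 59.5 and 63.7) and RAB25, a GTPase of polarized epithelia (0.10 and 0.00 FPKM, against 64.5 and 57.0). Not every junction gene was low. The tight junction scaffold TJP1 had 20.2 and 19.2 FPKM in RKO, against 22.6 and 24.4 FPKM in HCT116 (adjusted p = 0.141), and occludin (OCLN) had 12.7 and 10.9 FPKM, against 8.28 and 9.02 FPKM (adjusted p = 0.0927). The only member called higher in RKO was KRT80, with 4.68 and 20.5 FPKM in RKO, against 1.48 and 1.25 FPKM in HCT116, and its call was lost without either HCT116 library (adjusted p = 0.278 and 0.3).

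**Figure D2:**
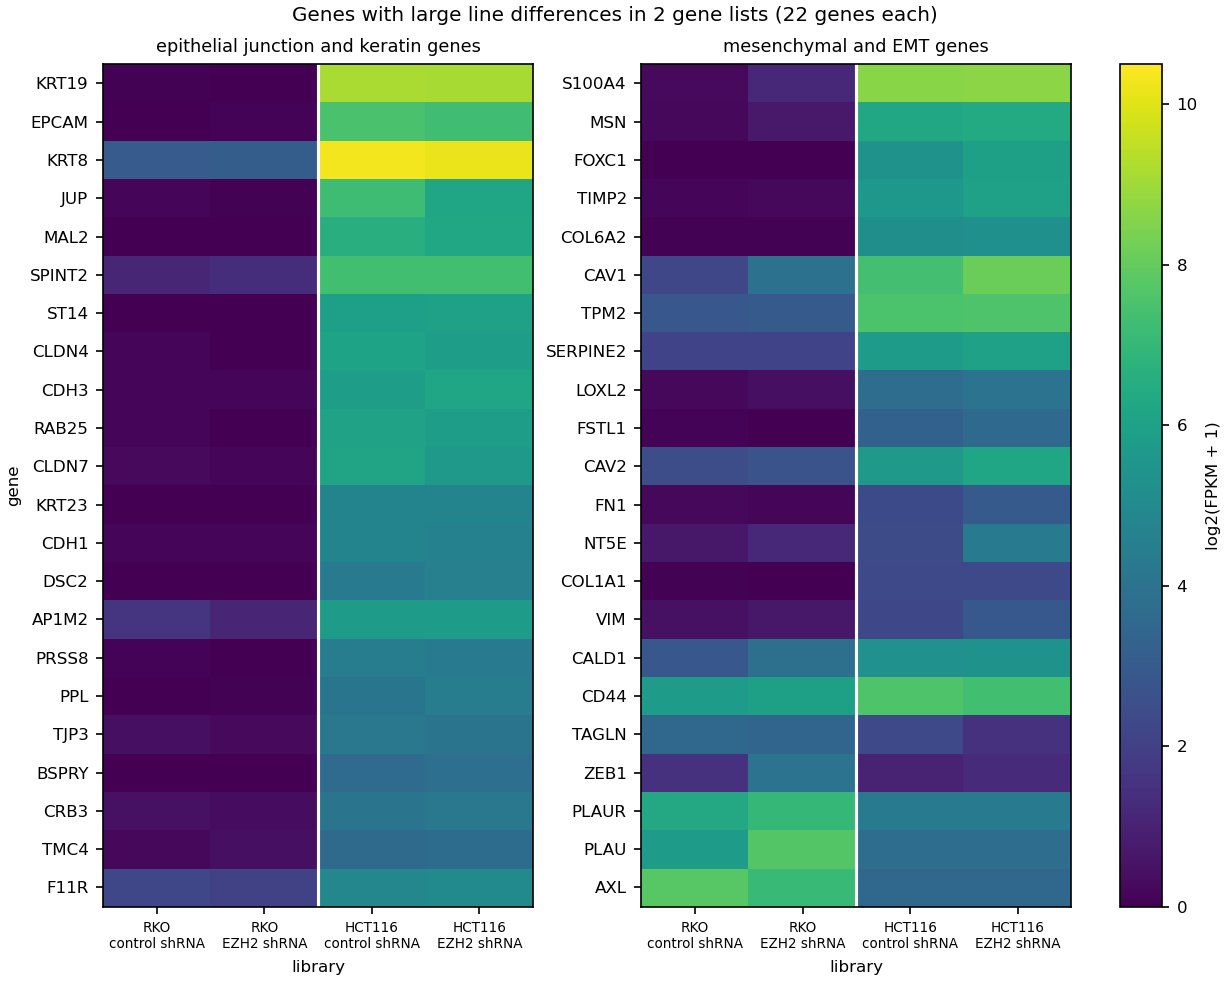
Level of 22 genes with large line differences in the epithelial list (left) and 22 in the mesenchymal list (right) in each library, RKO left of the white line and HCT116 right of it, as log2(FPKM + 1) by colour. The left panel is dark in both RKO libraries throughout, with KRT8 highest in HCT116, and in the right panel most genes are dark in RKO while AXL, PLAU and PLAUR are bright there.

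As a check of the labelled cell type, 7 of 11 colorectal epithelial markers were in the table. Their FPKM summed to 168 and 205 in RKO, against 2710 and 2611 in HCT116, and in RKO nearly all of that sum was KRT18. CDX2, the homeobox factor that specifies intestine, had 6.91 and 9.24 FPKM in RKO, against 10.7 and 8.95 FPKM in HCT116, which overlapped (adjusted p = 0.337). In RKO the markers above 1 FPKM were thus KRT18, KRT8 and CDX2, with EPCAM, CDH1 and KRT19 at or near 0. The immune list had 3 of 14 markers in the table, the endothelial and stromal list 2 of 12 and the erythroid list 3 of 7. Apart from CD68, described below, the immune markers summed to 15.7 and 9.17 FPKM in RKO, against 5.75 and 7.63 FPKM in HCT116. The endothelial and stromal markers summed to 0.07 and 0.06 FPKM, against 4.12 and 4.18 FPKM, and the erythroid markers to 2.84 and 0.56 FPKM, against 8.30 and 5.17 FPKM.

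Transcription factors of the gut epithelium divided between the lines. Of 23 measured intestinal identity factors, 14 were lower in RKO and 7 higher, beside 39.7% lower and 24.4% higher of all measured genes. The median of the list was -1.96, and it ranged from -2.07 to -1.96 without 1 library. ELF3, an ETS factor of epithelial differentiation, was listed at 0 in both RKO libraries, against 36.0 and 31.8 FPKM in HCT116, at least 442-fold lower in RKO. Its relative EHF had 0.01 and 0.01 FPKM in RKO, against 33.2 and 39.6 FPKM in HCT116. SOX9, a factor of the crypt base, had 0.03 and 0.03 FPKM in RKO, against 37.2 and 49.2 FPKM in HCT116. The splicing regulator ESRP1, which sets epithelial exon choice, had 0.03 and 0.00 FPKM in RKO, against 62.1 and 62.7 FPKM in HCT116, while its paralog ESRP2 had 26.5 and 22.4 FPKM in RKO, against 13.2 and 13.2 FPKM in HCT116 (difference 0.84 ± 0.12, adjusted p = 0.00774). The paralogs thus ran in opposite directions. HNF4A, a nuclear receptor of gut and liver, was listed at 0 in both RKO libraries, against 2.61 and 3.19 FPKM in HCT116, at least 64.3-fold lower, whereas HNF4G had 2.82 and 2.69 FPKM in RKO, against 0.96 and 1.18 FPKM in HCT116 (adjusted p = 0.00949). GATA4, a factor of proximal gut and heart, had 10.6 and 10.9 FPKM in RKO and was listed at 0 in both HCT116 libraries, at least 220-fold higher in RKO.

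Low expression of epithelial genes is a part of what is called epithelial to mesenchymal transition (EMT), in which genes such as VIM come up, so the mesenchymal list was examined next. More of it was lower than higher in RKO. Of 33 measured genes 22 were lower and 7 higher, beside 39.7% lower and 24.4% higher of all measured genes. The median of the list was -1.57, and it ranged from -1.93 to -1.43 without 1 library. VIM, which encodes vimentin, had 0.37 and 0.60 FPKM in RKO, against 3.80 and 6.37 FPKM in HCT116 (difference -2.01 ± 0.17, adjusted p = 0.00189), so both lines had little of it and RKO less. S100A4, a calcium-binding protein of motile cells, had 0.22 and 1.33 FPKM in RKO, against 398 and 402 FPKM in HCT116. The actin linker moesin (MSN) had 0.16 and 0.66 FPKM, against 77.0 and 85.1 FPKM, and the EMT factor FOXC1 0.00 and 0.02 FPKM, against 40.9 and 61.7 FPKM. The genes that were higher in RKO included genes of the plasminogen system, which controls proteolysis at the cell surface. PLAU, the urokinase plasminogen activator, had 53.7 and 204 FPKM in RKO, against 12.5 and 12.6 FPKM in HCT116, and its receptor PLAUR had 79.3 and 125 FPKM, against 19.9 and 18.6 FPKM. AXL, a receptor tyrosine kinase, had 217 and 136 FPKM in RKO, against 10.7 and 10.52 FPKM in HCT116. ZEB1, a repressor of CDH1, had 1.84 and 14.97 FPKM in RKO, against 1.02 and 1.36 FPKM in HCT116, with differences of 0.49 in the control pair and 2.76 in the EZH2 shRNA pair (adjusted p = 0.0862). It was called higher in the median-of-ratios, GC trend, edgeR, DESeq2 and RKO control left-out fits, and its RKO libraries were unlike each other.

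**Figure D3:**
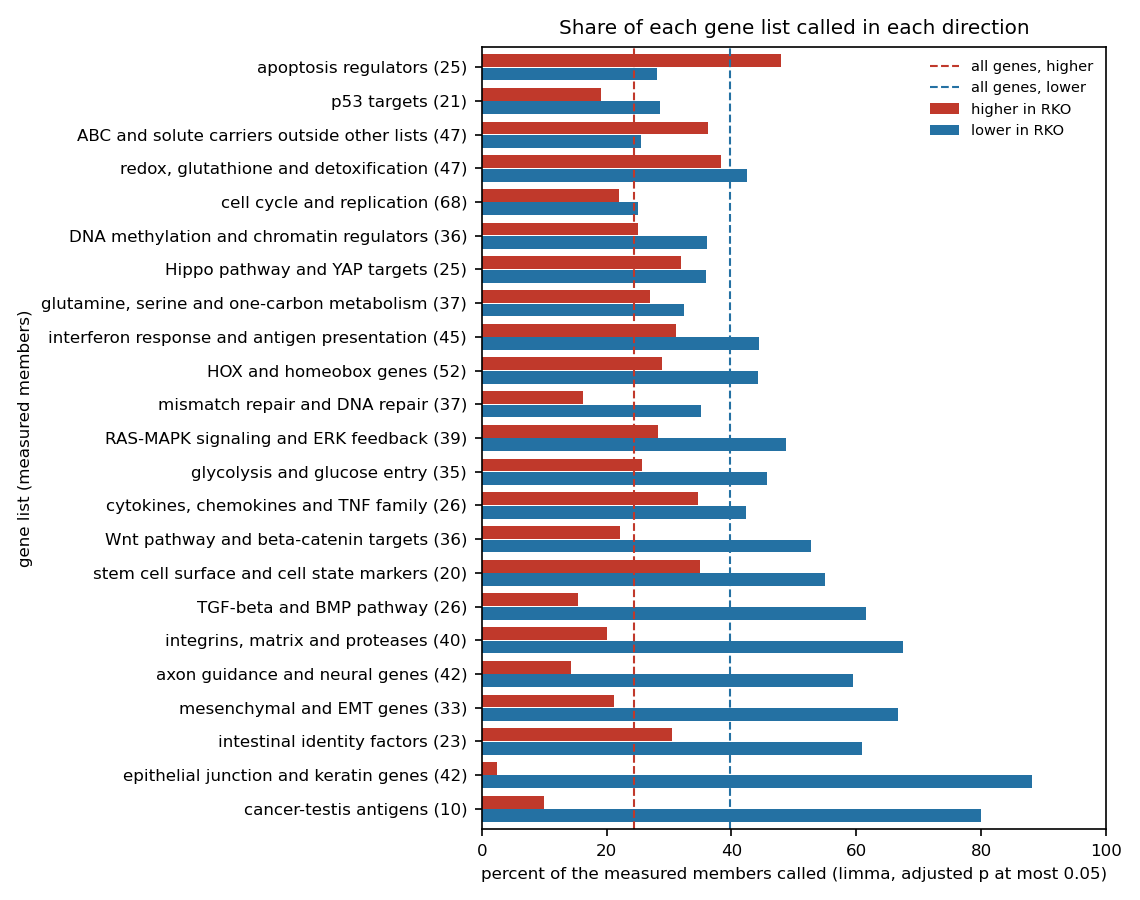
Percent of the measured members of each gene list that were called higher in RKO (red, upper bar) and lower in RKO (blue, lower bar), for lists with at least 10 measured members, the number measured in parentheses and lists ordered by their median difference from high to low. Dashed lines mark the shares over all measured genes, 24.4% higher and 39.7% lower. The epithelial list and the cancer-testis list have the longest blue bars, and apoptosis regulators have the longest red bar.

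Signaling pathways were examined in the same way. In the Wnt pathway, beta-catenin moves to the nucleus and activates TCF and LEF factors, which in turn induce feedback inhibitors. Of 36 measured genes of this list 19 were lower in RKO and 8 higher, beside 39.7% lower and 24.4% higher of all measured genes. The median of the list was -0.83, and it ranged from -0.92 to -0.69 without 1 library. Beta-catenin itself (CTNNB1) had 126 and 121 FPKM in RKO, against 128 and 138 FPKM in HCT116 (adjusted p = 0.349). Of the DNA-binding partners, TCF7L2 had 7.78 and 8.2 FPKM in RKO, against 89.5 and 101 FPKM in HCT116, and TCF7L1 had 0.04 and 0.04 FPKM, against 13.8 and 15.5 FPKM. LEF1 ran the other way, with 15.6 and 19.8 FPKM in RKO and 0 in both HCT116 libraries, at least 279-fold higher in RKO. The feedback target AXIN2 had 2.18 and 1.59 FPKM in RKO, against 20.8 and 20.9 FPKM in HCT116 (difference -2.93 ± 0.16, adjusted p = 0.000900). RNF43, a ligase that removes Wnt receptors, had 0.05 and 0.07 FPKM, against 37.1 and 46.1 FPKM. DKK1 was listed at 0 in both RKO libraries, against 74.5 and 59.2 FPKM in HCT116, at least 625-fold lower.

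The RAS-MAPK list, which joins the ligands and receptors of this cascade with the feedback genes that ERK induces, was called in shares near those of all measured genes (39.7% lower and 24.4% higher). Of 39 measured genes 19 were lower in RKO and 11 higher, and leaving out 1 library gave 12 to 19 lower and 7 to 11 higher. Among the ligands of the EGF receptor, AREG (amphiregulin) had 0.00 and 0.09 FPKM in RKO, against 149 and 173 FPKM in HCT116, and EREG (epiregulin) 0.06 and 0.13 FPKM, against 152 and 157 FPKM. HBEGF, another ligand of the same receptor, had 28.0 and 47.0 FPKM in RKO, against 2.76 and 3.11 FPKM in HCT116 (difference 3.25 ± 0.20, adjusted p = 0.00105), a call lost without either HCT116 library (adjusted p = 0.0533 and 0.0521). The phosphatases that switch off MAP kinases were split by member. DUSP4 had 0.84 and 0.69 FPKM in RKO, against 26.6 and 41.1 FPKM in HCT116. DUSP6 had 12.4 and 24.9 FPKM, against 75.9 and 126 FPKM (adjusted p = 0.000734). Its difference was -2.52 in the control pair and -2.29 in the EZH2 shRNA pair. It was -2.77 without the HCT116 control and -2.05 without the HCT116 EZH2 shRNA library. DUSP1 had 64.2 and 76.6 FPKM in RKO, against 4.47 and 4.30 FPKM in HCT116, and DUSP5 had 152 and 154 FPKM, against 25.3 and 27.4 FPKM. The AP-1 gene JUN was among the largest rises of the table, with 217 and 202 FPKM in RKO, against 2.81 and 4.62 FPKM in HCT116, and its partner FOSL1 had 288 and 354 FPKM, against 42.7 and 55.7 FPKM.

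In the TGF-beta and BMP list, 16 of 26 measured genes were lower in RKO and 4 higher. Of all measured genes 39.7% were lower and 24.4% higher. The median of the list was -0.99, and it ranged from -1.15 to -0.94 without 1 library. The ligand BMP4 had 3.70 and 3.40 FPKM in RKO, against 175 and 199.93 FPKM in HCT116 (difference -5.37 ± 0.12). The BMP-induced inhibitors of differentiation followed in the same direction. ID1 had 9.67 and 13.5 FPKM, against 347 and 441 FPKM, and ID2 had 1.30 and 1.07 FPKM, against 77.7 and 113 FPKM. TGFBR2, a receptor of TGF-beta, had 2.75 and 2.24 FPKM, against 13.8 and 13.04 FPKM, while the ligand TGFB1 had 91.4 and 98.2 FPKM in RKO, against 44.5 and 35.7 FPKM in HCT116. Of 25 measured genes of the Hippo list, in which YAP induces a set of secreted and cytoskeletal proteins, 8 were higher in RKO and 9 lower, near the shares of all measured genes, or 11 and 8 under median-of-ratios scaling, 3 and 4 without the HCT116 control and 3 and 3 without the HCT116 EZH2 shRNA library. The YAP targets CYR61 (96.7 and 111 FPKM, against 3.55 and 6.85 FPKM) and AXL were higher in RKO, and AREG, counted in this list too, was lower. CTGF had 7.91 and 28.7 FPKM in RKO, against 0.53 and 1.82 FPKM in HCT116, a call lost without either HCT116 library (adjusted p = 0.221 and 0.151).

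Homeobox genes, which give cells their position along the body axis, were called in both directions, in shares near those of all measured genes (24.4% higher and 39.7% lower). Of 52 measured genes 15 were higher in RKO and 23 lower, or 20 and 22 under median-of-ratios scaling, and 14 and 15 without the HCT116 EZH2 shRNA library. HOXB2 had 23.9 and 58.5 FPKM in RKO, against 0.66 and 1.69 FPKM in HCT116, a call lost without either HCT116 library (adjusted p = 0.0818 and 0.0676), whereas its neighbours HOXB5 (1.93 and 2.60 FPKM, against 17.6 and 24.3 FPKM) and HOXB8 (6.4 and 10.7 FPKM, against 45.0 and 63.5 FPKM) were lower. IRX2 had 9.61 and 8.56 FPKM in RKO and was listed at 0 in both HCT116 libraries, at least 145-fold higher in RKO. NKX2-5, best known as a cardiac factor, had 9.82 and 11.3 FPKM in RKO, against 0.00 and 0.07 FPKM in HCT116. HOXA9 had 45.0 and 49.2 FPKM in RKO, against 52.1 and 75.6 FPKM in HCT116, and was not called (adjusted p = 0.0654).

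The immune and interferon genes that were higher in RKO stood out by their size. BST2 (tetherin), which holds budding virus at the cell surface, had 247 and 222 FPKM in RKO, against 1.00 and 0.41 FPKM in HCT116 (difference 7.13 ± 0.14), the largest rise on the log2(FPKM + 1) scale, which understates the change of genes at 0 in HCT116 such as TXNIP. IL32, a cytokine, had 337 and 316 FPKM, against 3.08 and 3.48 FPKM, and PSMB8, a subunit of the immunoproteasome, had 12.2 and 15.4 FPKM, against 0.30 and 0.19 FPKM. Its partner subunit PSMB9 had 4.43 and 4.23 FPKM in RKO, against 4.51 and 4.66 FPKM in HCT116 (adjusted p = 0.722). In the list as a whole 14 of 45 measured genes were higher in RKO and 20 lower, near the shares of all measured genes, and 8 and 13 without the HCT116 control and 8 and 11 without the HCT116 EZH2 shRNA library. The 2 parts of the pathway that senses DNA in the cytosol were found in different lines. The sensor CGAS had 24.0 and 23.5 FPKM in RKO, against 0.03 and 0.03 FPKM in HCT116. The adaptor that its product activates, STING (TMEM173), was listed at 0 in both RKO libraries, against 15.0 and 10.02 FPKM in HCT116, at least 114-fold lower in RKO. A pair of genes usually taken as marks of blood cells were among the largest rises. CD68, a lysosomal protein of macrophages, had 284 and 271 FPKM in RKO, against 3.24 and 3.54 FPKM in HCT116. LCP1 (plastin-2), an actin bundler of leukocytes, had 134 and 115 FPKM, against 0.29 and 0.32 FPKM. The other immune markers in the table, CD8A and CORO1A, had the sums given above, higher in RKO in both pairs and nearly all CORO1A in RKO. Of the 2 measured immune markers 1 was called higher in RKO on the deposited scale. Both were called higher under median-of-ratios scaling and with the GC trend subtracted. The part of other cells in these values was not tested.

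In glycolysis, 9 of 35 measured genes were higher in RKO and 16 lower, near the shares of all measured genes (24.4% and 39.7%). The counts were 4 and 11 without the HCT116 control, 3 and 11 without the HCT116 EZH2 shRNA library, and 6 and 18 without the RKO control. ENO1, LDHA and PKM, enzymes of its later steps, were not called, with 1781 and 1514 FPKM in RKO for ENO1, against 1573 and 1572 FPKM in HCT116 (adjusted p = 0.619). Other members of the list differed. TXNIP, which retains glucose transporters inside the cell, had 53.4 and 62.9 FPKM in RKO and was listed at 0 in both HCT116 libraries, at least 1033-fold higher in RKO. MLXIPL, which encodes the glucose-sensing factor ChREBP, had 0.50 and 0.79 FPKM in RKO, against 13.4 and 12.2 FPKM in HCT116. The glucose transporter SLC2A1 had 45.1 and 35.5 FPKM, against 134 and 126 FPKM, and hexokinase 2 (HK2) had 44.8 and 35.2 FPKM, against 13.2 and 12.3 FPKM. BNIP3, a hypoxia-induced mitophagy receptor, had 0.17 and 0.13 FPKM in RKO, against 47.5 and 51.5 FPKM in HCT116. In glutamine metabolism, the liver-type glutaminase GLS2 had 12.8 and 8.11 FPKM in RKO, against 0.19 and 0.23 FPKM in HCT116 (difference 3.21 ± 0.22, adjusted p = 0.00126).

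Detoxification genes made up some of the sharpest contrasts. Of 47 measured genes 18 were higher in RKO and 20 lower, turning to 23 and 17 under median-of-ratios scaling. Of all measured genes 24.4% were higher and 39.7% lower. The median of the list was 0.01, and it ranged from -0.17 to 0.18 without 1 library. The metallothioneins, small proteins that bind zinc and copper, were higher in RKO. MT2A had 3420 and 4501 FPKM in RKO, against 877 and 903 FPKM in HCT116 (difference 2.14 ± 0.12), and MT1X had 979 and 945 FPKM, against 90.5 and 112 FPKM. MT1G had 40.3 and 52.1 FPKM in RKO and was listed at 0 in both HCT116 libraries, at least 97.6-fold higher. These genes are near-identical copies, so the share of each in the reads is uncertain. CBR1 had 70.8 and 71.0 FPKM in RKO, against 0.00 and 0.05 FPKM in HCT116. The glutathione transferases GSTM1 (43.8 and 42.3 FPKM, against 0.38 and 0.61 FPKM) and GSTT1 (29.1 and 31.4 FPKM, against 0.06 and 0.22 FPKM) were higher in RKO too, again with close relatives. CYP24A1, which breaks down vitamin D, had 0.02 and 0.00 FPKM in RKO, against 46.6 and 53.8 FPKM in HCT116, and ALDH1A3, which makes retinoic acid, had 0.19 and 0.23 FPKM, against 53.3 and 94.8 FPKM. The quinone reductase NQO1 had 26.2 and 27.1 FPKM, against 167 and 153 FPKM.

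Of 68 measured cell cycle genes 15 were higher in RKO, 17 lower and 36 not called, beside 24.4% higher and 39.7% lower of all measured genes. The balance turned with the scaling, to 26 and 12 with median-of-ratios scaling and 21 and 10 with edgeR, and only 4 and 5 were called without the HCT116 control and 4 and 6 without the HCT116 EZH2 shRNA library. The inhibitor CDKN2A had 1.14 and 0.70 FPKM in RKO, against 57.9 and 65.0 FPKM in HCT116 (difference -5.03 ± 0.18). The D-type cyclin CCND2 had 32.3 and 37.5 FPKM in RKO, against 0.02 and 0.00 FPKM in HCT116, and CCND1 had 74.6 and 52.5 FPKM, against 126 and 111 FPKM. Among the genes with unlike RKO libraries, TTK, a spindle checkpoint kinase, had 2.65 and 11.2 FPKM in RKO, against 32.3 and 31.5 FPKM in HCT116 (adjusted p = 0.0188, or 0.248 and 0.247 without either HCT116 library), and CENPF had 1.52 and 21.8 FPKM, against 36.6 and 39.6 FPKM (adjusted p = 0.0695). Transcripts of low GC content as a class were low in that library. In the 609 genes of lowest GC (the lowest of 10 classes, 30.2% to 38.1%), the median difference was -0.998 in the control pair and -0.207 in the EZH2 shRNA pair, while in the class from 52.5% to 55.8% it was -0.0627 and -0.14. CENPF has a GC content of 40.8%, outside that lowest class. In its own class, from 40.49% to 42.85%, the median difference was -0.313 in the control pair and -0.165 in the EZH2 shRNA pair. The part of GC in the value of CENPF was not tested singly. Of 21 measured p53 targets 4 were higher in RKO and 6 lower, beside 24.4% and 39.7% of all measured genes. The counts turned to 10 and 5 with median-of-ratios scaling and 8 and 5 with edgeR. The median of these targets was 0.35, and it ranged from -0.11 to 0.58 without 1 library. The kinase PLK2, a p53 target, had 0.04 and 0.44 FPKM in RKO, against 29.7 and 45.2 FPKM in HCT116. Of 25 measured apoptosis regulators 12 were higher and 7 lower, or 7 and 3 without the HCT116 control and 7 and 2 without the HCT116 EZH2 shRNA library. They included BAK1, an effector at the mitochondrion, at 38.5 and 32.1 FPKM in RKO, against 11.9 and 7.45 FPKM in HCT116, and the inflammatory caspase CASP4 at 52.99 and 63.4 FPKM, against 16.4 and 16.01 FPKM.

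In DNA repair, 6 of 37 measured genes were higher in RKO, 13 lower and 18 not called, or 7 and 6 under median-of-ratios scaling. Of all measured genes 24.4% were higher and 39.7% lower. The median of the list was -0.37, and it ranged from -0.35 to -0.29 without 1 library. ERCC1, of nucleotide excision repair, had 103 and 189 FPKM in RKO, against 38.8 and 43.4 FPKM in HCT116 (adjusted p = 0.00408, or 0.154 and 0.137 without either HCT116 library). Among chromatin regulators, the ATPase SMARCA1 had 0.00 and 0.01 FPKM in RKO, against 28.8 and 31.8 FPKM in HCT116, while SMARCA2 had 14.9 and 14.5 FPKM, against 2.62 and 3.59 FPKM.

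Next, genes seen in 1 line alone were counted, taking as on a level of at least 5 FPKM in both libraries of a line and as off a level of at most 0.1 FPKM in both libraries of the other. There were 31 genes on in RKO and off in HCT116, and 263 on in HCT116 and off in RKO. These counts follow the listing of the table, in which 1266 genes were off in both RKO libraries and 183 in both HCT116 libraries, so that the larger number in HCT116 cannot be told apart from the choice of genes listed. The highest in RKO were DLC1 (87.0 and 70.1 FPKM, against 0.00 and 0.01 FPKM in HCT116), a GTPase-activating protein, and G0S2 (62.6 and 82.8 FPKM, against 0 in both). The highest in HCT116 after KRT19 was GTSF1, a factor of the piRNA pathway in germ cells, listed at 0 in both RKO libraries, against 175 and 187 FPKM in HCT116, at least 754-fold lower in RKO. Other germline genes were found there too. Of 10 measured cancer-testis genes 8 were lower in RKO and 1 higher, beside 39.7% lower and 24.4% higher of all measured genes. MAGEB2 was listed at 0 in both RKO libraries, against 124 and 123 FPKM in HCT116. MAGEA3, which has near-identical copies, was at 0 in both, against 61.0 and 54.5 FPKM. PRAME was the exception, higher in RKO with 33.6 and 33.5 FPKM, against 25.1 and 26.8 FPKM in HCT116. That call was lost with the GC trend subtracted, with eBayes without a trend and with DESeq2. Each of these called 0 genes of this list higher, and the call was also lost when 1 library was left out. The stem cell surface marker PROM1 was listed at 0 in both RKO libraries, against 9.31 and 9.58 FPKM in HCT116.

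**Figure D4:**
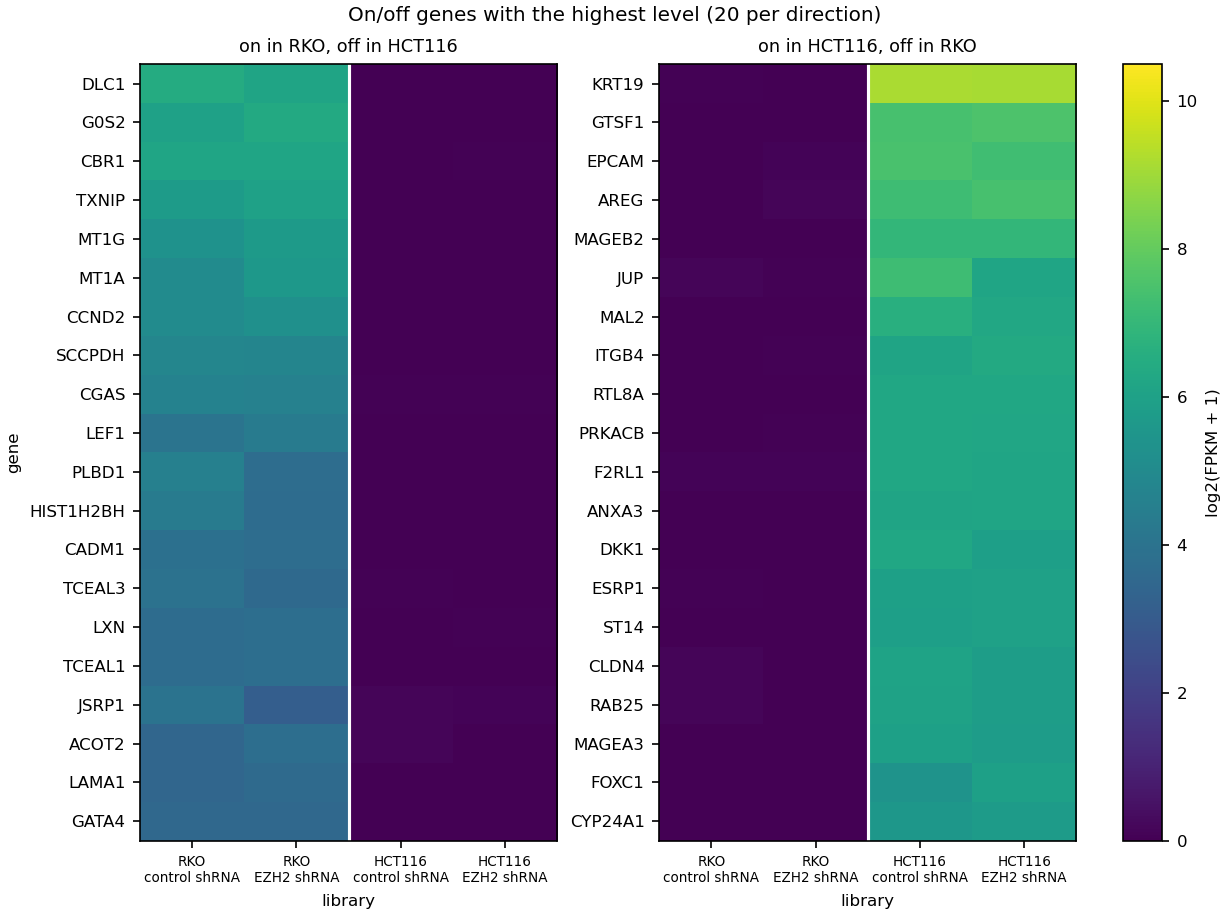
Level of the 20 genes with the highest level among those on in RKO and off in HCT116 (left) and on in HCT116 and off in RKO (right) in each library, RKO left of the white line and HCT116 right of it, as log2(FPKM + 1) by colour. Within a line the control and EZH2 shRNA libraries have similar colours in every row, and the other line is at or near 0.

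Some genes of these sets lay next to each other, with at most 2 protein-coding genes between them in the RefSeq order. On in HCT116 were the kallikreins KLK6, KLK8 and KLK10 and the X-linked pairs MAGEA3 with CSAG2 and RTL8C with RTL8A. On in RKO were MT1A with MT1G and, on the X chromosome, TCEAL3 with TCEAL1. In all there were 17 such groups, 15 on in HCT116 and 2 on in RKO, holding from 2 to 3 genes each. How many groups genes placed at random would form was not worked out, so these counts do not show clustering.

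Promoters of the on and off genes were compared by their CpGs, searched as CG (the same on both strands) in the RefSeq window of 250 bases before and 50 after the start. A promoter was found for 184 of the 263 genes on in HCT116 and 20 of the 31 on in RKO, but not for KRT19, EPCAM, CDH1 or CGAS. A ratio of observed to expected CpGs of at least 0.6 was found in 69.0% of the 184 genes off in RKO and in 70.0% of the 20 genes off in HCT116. The share was 81.6% for 4939 of all measured genes and 89.4% for 2437 genes with at least 5 FPKM in every library. The median number of CpGs was 25 in the genes off in RKO, 19 in those off in HCT116 and 26 in the measured genes. Of all 27300 promoters of the table, 95.8% hold at least 1 CG. Genes that were off in a line thus had both CpG-rich promoters, such as CBR1 and JUP, and CpG-poor ones, such as ELF3 and LEF1.

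Lastly, the line difference was laid out along the chromosomes, a view chosen after the values were seen. Chromosome 9 stood apart. Of its 300 measured genes 54.7% were higher in RKO and 20.3% lower, with a median difference of 0.72, while the medians of the other chromosomes were all below 0, the lowest at -0.60 on chromosome 4. Among the 254 genes of chromosome 9 with at least 1 FPKM in every library, 158 were higher and 26 lower, with a median of 0.97 and quartiles of -0.08 and 1.41. The medians of the other chromosomes then ran from -0.31 on chromosome 17 to 0.07 on chromosome 8. With the GC trend subtracted from all measured genes, they ran from -0.56 on chromosome 17 to 0.17 on chromosome 8, against 0.76 on chromosome 9. The difference was not spread evenly over chromosome 9. In 8 bins of measured genes in RefSeq order, the medians were -0.09 and -0.53 in the first 2 bins, 0.35 and 0.71 in the next 2, and 0.88, 1.38, 1.16 and 1.41 in the last 4. In the sixth bin, which runs between AK1 and TOR1A, 33 of 37 genes were higher in RKO, with a median of 1.34 in the control pair and 1.40 in the EZH2 shRNA pair. Genes of unrelated function took part. MRPL41, of the mitochondrial ribosome, had 307 and 259 FPKM in RKO, against 68.5 and 59.8 FPKM in HCT116, PMPCA, a mitochondrial peptidase subunit, had 171 and 169 FPKM, against 45.9 and 43.6 FPKM, and the signaling adaptor TRAF2 had 36.1 and 30.7 FPKM, against 8.48 and 7.58 FPKM. CDKN2A, on the same chromosome, went the other way, but it lay in the first bin, outside the raised stretch.

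Runs of lower genes, and bins with medians above 0, were found on other chromosomes. On chromosome 17 the sixth, seventh and eighth of 9 bins, between HOXB4 and SOCS3, had medians of -1.01, -1.02 and -1.18, with 28, 29 and 31 of 40 genes each lower in RKO. On chromosome 16 the first of 7 bins had a median of 0.53 and the last one, between CENPN and DBNDD1, a median of -0.97, with 30 of 39 genes lower. On chromosome 10 the first of 6 bins had a median of 0.60 and the fifth, between HOGA1 and SHOC2, a median of -0.90. On chromosome 7 the fifth and the last of 7 bins had medians of 0.53 and 0.71. After the GC trend was subtracted these medians were -0.89, -0.87 and -1.26 on chromosome 17, and 0.50 and -1.03 on chromosome 16. They were 0.74 and -0.81 on chromosome 10, and 0.54 and 0.68 on chromosome 7. DNA copy number was not measured.

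**Figure D5:**
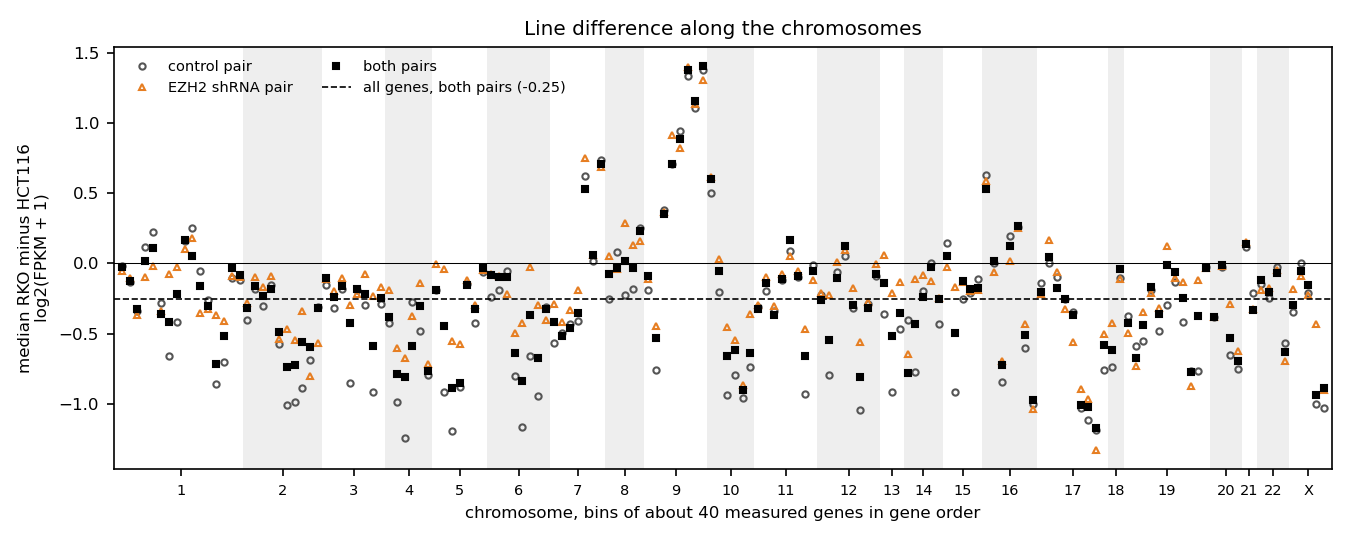
Median line difference, RKO minus HCT116, of log2(FPKM + 1) in bins of about 40 measured genes in gene order along each chromosome, for both pairs together (squares), the control pair (circles) and the EZH2 shRNA pair (triangles). The dashed line is the median of all measured genes (-0.25). The last bins of chromosome 9 lie between 0.88 and 1.41 and those of chromosome 17 fall to -1.18, in both pairs alike.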

How the data were processed

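The authors mapped reads with Bowtie and quantified them with RSEM. The submitters' processing notes name Bowtie2, BWA, hg19 and GRCh37, while the study's methods name a mouse build, and versions are not given in the sources used here. The deposited table held FPKM values per gene and library, and expected counts, estimated fragments that need not be whole. The authors' log2 ratios of knockdown to control were not used. Expected counts of the listed genes summed to between 7898152 and 8185776 per library. The rule for listing genes was not given in the sources used here.

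Differences were taken on log2(FPKM + 1) and tested with limma 3.58.1 (R 4.3.3) in all 4 libraries, shRNA as factor, eBayes with a trend, Benjamini-Hochberg at 0.05, two-sided, leaving 1 residual degree of freedom. The pseudocount understates the change of low genes. The shRNA pairs come from the labels, and no replicate number pairs the libraries. Fits without 1 library held the line alone, with no shRNA factor. The design assumed FPKM alone. Expected counts, rounded, were tested with edgeR 4.0.16 and DESeq2 1.42.0 as alternatives. A fold against a line at 0 is a bound from 3 counts per library, scaled by library totals, for the smaller of the 2 pairs, and covers counting error only. Transcript GC was that of the longest GENCODE transcript, and promoters and gene order came from RefSeq GRCh38.p14. The tests were tested on simulated data.

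The comparison and the 27 gene lists were chosen with earlier results of these data known, and a gene can be in several lists. The genes named are the 12 largest rises and falls, up to 5 called members per list, 10 genes on in 1 line per direction, 10 called genes with unlike pairs and a set of markers. CLDN4, ST14, RAB25, TJP1, OCLN, PLAU, PLAUR, ESRP2, HNF4G, GATA4, CTNNB1, TCF7L2, DUSP5, FOSL1, TGFBR2, TGFB1, HOXB5, HOXB8, HOXA9, PSMB9, ENO1, LDHA, PKM, SLC2A1, HK2, MT2A, MT1X, GSTM1, GSTT1, NQO1, CCND1, CENPF, PRAME, KLK8, KLK10, RTL8C, TCEAL3, TCEAL1, AK1, TOR1A, MRPL41, PMPCA, TRAF2, HOXB4, SOCS3, CENPN, DBNDD1, HOGA1, SHOC2, CD8A, CORO1A were named after their values were seen. Some results are not reported here.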

Additional observations from a re-analysis of the deposited data

Results flagged for a closer look

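The line difference ran in opposite directions in the control pair and the EZH2 shRNA pair, by at least 1.5-fold each way, in 14 measured genes. None of them was called, since the test could not call a gene whose pairs had opposite signs. Whether the pairs differed was not tested, since each pair holds 1 library per line. In 13 of the 14 RKO was lower in the control pair and higher in the EZH2 shRNA pair. Their values follow as RKO minus HCT116 of log2(FPKM + 1), first in the control pair and then in the EZH2 shRNA pair. CALB2, a calcium-binding protein, gave -0.991 and 1.04, CCDC88A -0.838 and 0.874, the chromatin remodeler CHD1 -0.931 and 0.675, and CITED2 -1.07 and 0.652. DNTTIP2 gave -1.54 and 0.789, EMC2 -0.619 and 0.751, GFPT2, of the hexosamine pathway, -1.655 and 0.823, and HAUS6 -0.636 and 0.755. The histone gene HIST1H4K gave -1.18 and 1.88, PRELID3B -0.585 and 0.617, SPP1 (osteopontin) -1.675 and 0.890, and TBC1D23 -0.626 and 0.967. The hemoglobin genes HBA1 (0.693 and -1.01) and HBA2 (-1.155 and 0.642) are near-identical copies and went opposite ways, so their values are uncertain. The median GC content of the 14 genes was 40.8%, against 48.8% of all measured genes, and its part in these values was not tested.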

How the results depend on the processing

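Leaving out 1 library gave 722 to 1473 genes higher in RKO and 1435 to 2753 lower. At least 2-fold, 893 genes were higher, and with a mean of at least 5 FPKM 1277 were lower. The genes on in RKO and off in HCT116 numbered 18 with at least 10 FPKM, 15 with exactly 0 in HCT116 and 66 by expected counts, and the genes on in HCT116 and off in RKO 137, 121 and 548. The line difference of CDX2 changed sign under median-of-ratios scaling (0.0153), edgeR (0.0833) and DESeq2 (0.0506), and the line difference of EZH2 ranged from -1.47 to 0.719 without 1 library (0.25 without the HCT116 control). List medians that changed sign were, under median-of-ratios scaling, chromatin regulators (0.178), interferon (0.0090), glutamine (0.0937), cell cycle (0.203) and Hippo (0.0827). Under edgeR they were chromatin (0.121), glutamine (0.0165), cell cycle (0.121) and Hippo (0.0232), and under DESeq2 chromatin (0.0871) and cell cycle (0.0878). With a mean of at least 5 FPKM they were intestinal differentiation (0.734) and Hippo (0.142), with the GC trend subtracted redox (-0.0273) and cell cycle (0.0158), without a filter redox (-0.289), and in the EZH2 shRNA pair alone redox (-0.127) and Hippo (0.125). Without 1 library, redox ranged from -0.167 to 0.185, p53 targets from -0.110 to 0.583 and Hippo from -0.233 to 0.142. The cause of these changes was not tested. Of 150 called genes named by rule, 25 lost their call in at least 1 setting, 18 of them only when 1 library was left out, and without the HCT116 control or EZH2 shRNA library 23 and 22 lost it. The libraries were paired by shRNA, and no replicate number gave another pairing. Without the shRNA factor 1465 genes were higher and 2323 lower. With 1 library per line and shRNA, culture, extraction and sequencing cannot be told apart from the line.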

Other observations

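Genes of neurons, which guide axons or build synapses, were often lower in RKO. Of 42 measured genes of this list 25 were lower and 6 higher, against 39.7% lower and 24.4% higher of all measured genes, and leaving out 1 library gave 20 to 27 lower. SEMA3A, a secreted axon guidance cue, was at 0 in both RKO libraries and at least 274-fold lower than in HCT116. Of 40 measured integrin, matrix and protease genes 27 were lower and 8 higher. ITGB4, the beta subunit of the hemidesmosome, had 0.01 and 0.03 FPKM in RKO (control and EZH2 shRNA), against 68.7 and 83.0 FPKM in HCT116. ITGB1, the common beta subunit, had 598 and 727 FPKM in RKO, against 123 and 164 FPKM in HCT116. The proteoglycan VCAN was at 0 in both RKO libraries, against 10.4 and 34.5 FPKM in HCT116, at least 528-fold lower in RKO.

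Of 20 measured stem cell surface and state markers 7 were higher in RKO and 11 lower, and 3 and 8 without either HCT116 library, beside 24.4% higher and 39.7% lower of all measured genes. Of 47 measured carriers 17 were higher and 12 lower, or 24 and 11 under median-of-ratios scaling, 10 and 9 without the HCT116 control and 7 and 9 without the HCT116 EZH2 shRNA library. KITLG, the ligand of KIT, had 0.53 and 1.82 FPKM in RKO, against 356 and 331 FPKM in HCT116. EEF1A2, a translation factor of neurons and muscle, had 0.32 and 0.35 FPKM in RKO, against 283 and 248 FPKM in HCT116. The cadherin FAT1 had 6.01 and 5.33 FPKM in RKO, against 110 and 123 FPKM in HCT116.

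Of 26 measured cytokines, chemokines and TNF family genes 9 were higher in RKO and 11 lower. Of all measured genes 24.4% were higher and 39.7% lower. The median of the list was -0.55, and it ranged from -0.58 to -0.32 without 1 library. IL18, a cytokine of the inflammasome, was at 0.22 and 0.48 FPKM in RKO, against 59.9 and 65.6 FPKM in HCT116, and IL11 was at 10.2 and 13.8 FPKM, against 0.69 and 0.92 FPKM. Of 5 measured intestinal differentiation genes 4 were lower and 1 higher, the carbonic anhydrase CA2, whose call was lost when any 1 library was left out (adjusted p = 0.0956 to 0.528). Of 37 genes of glutamine, serine and one-carbon metabolism 10 were higher and 12 lower, or 15 and 7 under median-of-ratios scaling, 3 and 5 without the HCT116 control and 3 and 7 without the HCT116 EZH2 shRNA library. Of 36 chromatin regulators 9 were higher and 13 lower, or 11 and 10 under median-of-ratios scaling, 3 and 5 without the HCT116 control and 1 and 5 without the HCT116 EZH2 shRNA library. On the deposited scale the shares of the glutamine and chromatin lists were near those of all measured genes.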
